A study of Drosophila melanogaster with 7 samples.

Results

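The pickpocket genes of tracheal liquid clearance were 9 of the 31 pickpocket family genes listed in each gene table: Nach (now also called ppk4), ppk7, ppk10, ppk11, ppk12, ppk13, ppk14, ppk19 and ppk28. They were chosen by name, each row's gene name having to match exactly, out of 17697 named rows, and that rule uses no measured value. In 7 libraries of larval airway, ppk28 and ppk11 gave 267 and 57 reads in all, and the other 7 members gave 34 reads together. Only ppk28 had enough reads to enter the main test between HopCA and control tracheae, and it was not called, where 31.5% of all genes tested were. Nearly all ppk28 reads and every ppk11 read were not uniquely assigned, and other annotated genes lie over the exons of both.

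Pickpocket genes encode sodium channel subunits of the DEG/ENaC family, to which the amiloride-sensitive epithelial sodium channels of the vertebrate lung belong. In the fly embryo the tracheal tubes form filled with liquid, and the tubes fill with gas only after that liquid is taken up across the epithelium. Several pickpocket genes were described in the tracheal system and linked to this uptake, and the same family serves taste, touch, nociception and pheromone sensing in sensory neurons.

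From larvae of the third instar of Drosophila melanogaster, tracheae were profiled by RNA sequencing in 3 HopCA and 4 control libraries, in a series on raised JAK/STAT signalling in airway epithelium. The fly JAK kinase is encoded by hop, of which HopCA animals carry the Hop.CA form. These animals grew at 18 °C until the L2 stage and then spent 18 hours at 29 °C. Control animals stayed at 18 °C. The strain label of all 7 libraries, controls included, names btl-Gal4 (driving tracheal expression), UAS-GFP, UAS-Hop.CA and tub-Gal80ts (a Gal4 repressor that heat inactivates). Genotype is given as control for the controls only in a separate label, and their titles call them wild type. Hop.CA expression and rearing temperature therefore cannot be told apart. The number of animals behind each library is not stated, and p-values measure only the spread between these libraries.

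The libraries held 18618125, 19467116 and 19597298 reads in genes in HopCA, and between 16795748 and 20455268 in control. Levels are given as CPM, read counts scaled to a library's normalised size, for comparing groups, and as RPKM, which is also scaled to exon length, for comparing genes. The label check held in every library: hop averaged 1459.6 ± 126 CPM in HopCA and 41.5 ± 2.64 CPM in control tracheae (SD, n = 3 and 4; log2 fold change 5.14 ± 0.10 SE, edgeR quasi-likelihood adjusted p = 2.69e-07). All 10 genes listed as tracheal markers were read in both groups. The list includes bnl, which encodes the ligand of the btl receptor (log2 fold change -1.13, edgeR adjusted p = 0.0947). Summed, the 10 ran from 15399 to 16196 CPM in HopCA and from 10455 to 11311 CPM in control. 3 were called higher (trh, serp and verm) and 1 lower (btl, log2 fold change -0.63, adjusted p = 0.0138), with a list median of -0.10. serp, at 5373 CPM in HopCA and 3208 CPM in control, and verm, at 8723 and 5844 CPM, made up most of the sums. The sums thus mainly follow serp and verm rather than the list as a whole. trh, a regulator that defines tracheal fate, stood at 83.7 ± 3.28 RPKM in HopCA and 60.2 ± 11.8 RPKM in control. Markers of other tissues were present too. Summed muscle markers ran from 3277 to 10069 CPM in HopCA and from 9822 to 20657 CPM in control, with 7 of 12 called lower, beside 15.1% of all genes tested. Summed disc markers ran from 23.3 to 41.6 CPM in HopCA and from 60.6 to 147.6 CPM in control, with 5 of 7 called lower. Summed glial markers ran from 944 to 1926 CPM in HopCA and from 2590 to 4892 CPM in control, with 3 of 4 called lower. Summed ring gland markers ran from 13.9 to 14.7 CPM in HopCA and from 15.2 to 66.7 CPM in control, with 1 of 4 called lower. No hemocyte, fat body, or tubule and gut marker was called, with 1 tubule and gut marker at an unadjusted p under 0.05. Summed neuronal markers, which bear on channels of sensory neurons, ran from 22.9 to 31.2 CPM in HopCA and from 24.9 to 36.1 CPM in control, and edgeR called 0 of 7, with 0 at an unadjusted p under 0.05. Whether these admixed tissues contributed to any pickpocket value was not tested.

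**Figure D1:**
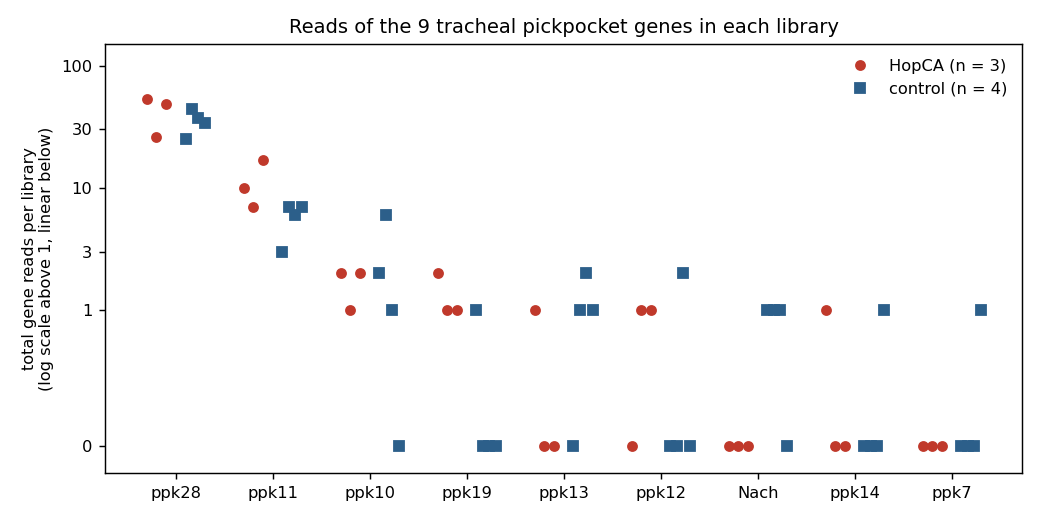
Total gene reads of each of the 9 members in each library, on an axis that is linear from 0 to 1 and logarithmic above 1; circles are the 3 HopCA libraries and squares the 4 control libraries. ppk28 lies between 25 and 53 reads and ppk11 between 3 and 17, while no other member exceeds 6 reads in any library.

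ppk28, the water-sensing channel of fly taste neurons, was the most abundant member. It lies on chromosome X at 16806068 to 16808515 on the plus strand (dm6), with 4 exons, 1818 coding bases and a UTR annotated at either end. It had 53, 26 and 48 reads in HopCA replicates 1 to 3, against 25, 44, 37 and 34 reads in control replicates 1 to 4. The 2 groups overlapped, since HopCA replicate 2 lay below 3 of the 4 control libraries. Its level was 2.20 ± 0.733 CPM in HopCA and 1.83 ± 0.403 CPM in control (SD, n = 3 and 4). Across libraries its RPKM values were 1.20, 0.606 and 1.07 in HopCA and 0.592, 0.975, 1.001 and 0.720 in control.

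The difference in ppk28 was within the replicate spread. Its log2 fold change was 0.27 ± 0.31 SE (95% interval -0.45 to 0.99), with an adjusted p of 0.534 in edgeR's quasi-likelihood test over 9457 genes. The interval leaves room for a change of up to 0.99 on the log2 scale, so the data do not show equal levels. ppk28 was the only member to pass the filter on low counts, and 0 of 1 was called, beside 31.5% of all genes tested. It had no unadjusted p under 0.05 either, and neither DESeq2 nor limma-voom called it.

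The reads of ppk28 were almost all shared with another annotated gene. Of 267 reads, 8 were uniquely assigned, or 3.00% (exact 95% interval 1.30% to 5.82%, counting error only). These were 3, 1 and 0 reads in HopCA and 0, 1, 1 and 2 reads in control, and no library had more than 3. In 7 of 7 libraries the number of unique reads equalled that of unique reads spanning 2 exons. All 2190 exon bases of ppk28 (100%) lie within the exons of CR44053, a non-coding RNA gene on the opposite strand at X 16806047 to 16809230. CR44053 itself was given 1, 2 and 3 reads in HopCA and 0, 3, 1 and 0 reads in control, and all 10 of them were unique. The shared reads thus stood in the ppk28 row.

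Other genes placed like ppk28 had a similarly small unique share. Among genes with at least 2 exons and at least 100 reads, the 308 that lie wholly within 1 gene on the opposite strand had a median of 4.96% unique reads, with a 10th to 90th percentile range of 0.0465% to 16.1%. In 265 of the 279 of these with any unique read (94.98%), every unique read spanned 2 exons. The 4074 genes that overlap no other gene had a median of 100% unique reads. The kit was stranded, per the labels' protocols, but the sources do not say whether the counting used strand. Apart from its 8 unique reads, which span 2 exons, sense and antisense reads at ppk28 cannot be told apart.

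Reads of ppk28 spanning 2 exons numbered 8, or 3.00% of its reads. In 69 genes of like build that overlap no other gene (1 transcript, 1500 to 3000 exon bases, 1.23 to 1.51 junctions per kilobase), the median share was 6.81%, with a 10th to 90th percentile range of 4.51% to 9.02%. Of these 69 genes, 2.90% had a share below that of ppk28, but the interval of ppk28 reaches past their 10th percentile. ppk28 introns had 31.01 reads per kilobase over the 7 libraries, against 118 reads per kilobase in its exons, with an intron length of only 258 bases.

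**Figure D2:**
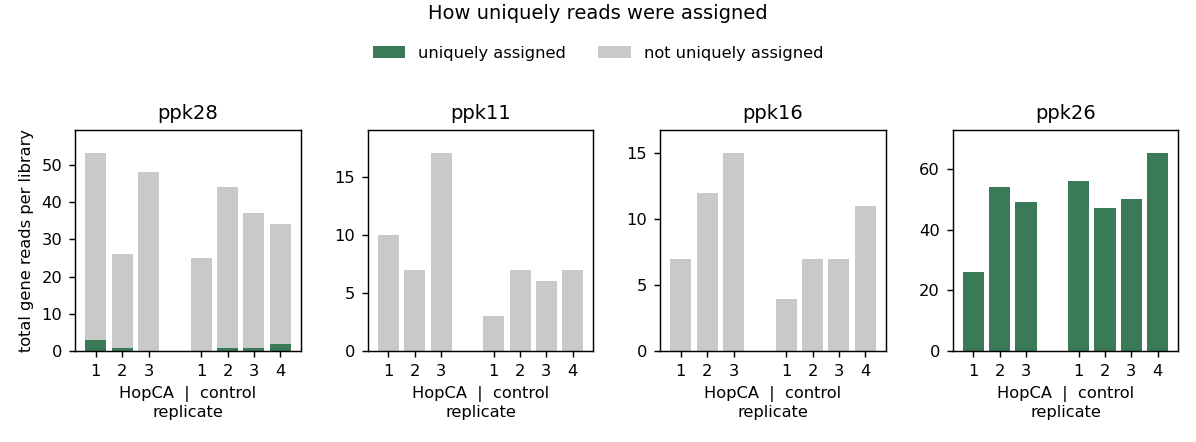
Total gene reads per library of ppk28, ppk11, ppk16 and ppk26, split into uniquely assigned reads (green) and the rest (grey), with the 3 HopCA libraries left of the 4 control libraries and a separate axis per gene. ppk28 has 0 to 3 unique reads in a library and ppk11 and ppk16 have 0, whereas every read of ppk26, which overlaps no other gene, is unique.

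**Figure D3:**
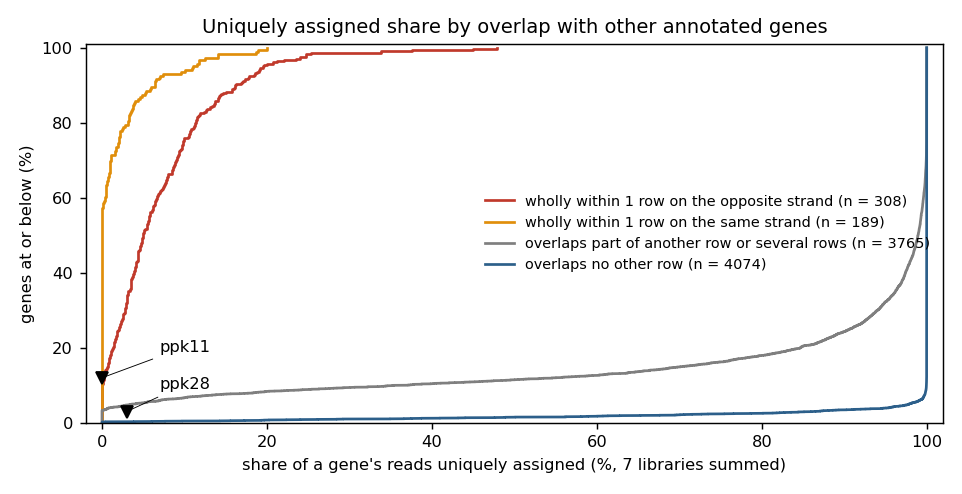
Cumulative share of genes (vertical axis, %) at or below a given share of uniquely assigned reads (horizontal axis, %, 7 libraries summed), for genes grouped by how their span overlaps other genes; triangles mark the horizontal position of ppk28 and ppk11, and their height carries no value. Both members sit at the low end with the genes lying wholly within another, at 3.00% and 0%, while the curve of the 4074 genes without overlap rises only near 100%.

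ppk11, a channel gene linked to airway liquid clearance and, with ppk19, to the taste of salt, was the second most abundant member. It lies on 2L at 9771155 to 9775030 on the minus strand, and has all 9 of its exons and its whole span in common with ppk16. The annotation places both open reading frames on this 1 exon structure, ppk11 upstream, with 65 bases between the stop codon of ppk11 and the start codon of ppk16. ppk11 had 10, 7 and 17 reads in HopCA, against 3, 7, 6 and 7 reads in control. None of these 57 reads was unique, and none of the 63 reads of ppk16 was. The tables therefore do not tell ppk11 from ppk16, a partner of ppk11 in synaptic homeostasis at the larval neuromuscular junction.

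The difference in ppk11 between the groups did not pass a test. Its level was 0.587 ± 0.248 CPM in HopCA and 0.299 ± 0.0921 CPM in control (SD, n = 3 and 4). The groups did not overlap in CPM, but only just, since the lowest HopCA library stood at 0.373 CPM and the highest control library at 0.357 CPM, and both groups hold a library with 7 reads. It was 1 of 9 members without overlap, beside 43.3% of all genes tested. Those genes all passed the filter on low counts, as only 1 member (ppk28, not ppk11) did, so the shares are not like for like. The exact two-sided permutation test over the 35 splits gave p = 0.0571, the smallest this design allows, so this test could not reach 0.05. ppk11 missed the filter on low counts, and without that filter its log2 fold change was 0.97 ± 0.48 SE (95% interval -0.10 to 2.04), with an edgeR adjusted p of 0.192. In that fit 0 of 9 members were called, beside 20.2% of 13419 genes, and 0 of 9 had an unadjusted p under 0.05.

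Because the reads of the pair cannot be separated, they were also summed, an alternative added after seeing the data. Together the ppk11 and ppk16 locus had 17, 19 and 32 reads in HopCA, against 7, 14, 13 and 18 reads in control. The highest control library lay between the 2 lowest HopCA libraries in reads. The summed level was 1.18 ± 0.385 CPM in HopCA and 0.674 ± 0.215 CPM in control, and the fitted log2 difference was 0.80 ± 0.37 SE (95% interval -0.06 to 1.65) and an edgeR adjusted p of 0.135.

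The other 7 members were at or near the limit of detection. They had 13 reads in HopCA and 21 reads in control, 34 in all, out of 57682539 and 76626879 reads. Of the 49 values (7 members in 7 libraries), 26 were 0. All 34 reads were unique, and 4 spanned 2 exons. Of the 13913 genes with exons, 3527 (25.4%) had no more reads than the highest of these members, at 14. At this depth a count of 0 over a group allows a level of up to 0.0522 CPM in HopCA and 0.0390 CPM in control, taking 3 reads as the limit.

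ppk10 was the most abundant of these, with 2, 1 and 2 reads in HopCA, against 2, 6, 1 and 0 reads in control. It lies on 2L at 10450134 to 10452396, minus strand, with 11 exons. The groups overlapped widely, and the ratio of summed rates, HopCA over control, was 0.743 with a counting interval of 0.196 to 2.47. Nach, whose product is among the channels tied to liquid clearance, lies on 2R at 16653205 to 16655046 and had 0 reads in all 3 HopCA libraries, against 1, 1, 1 and 0 reads in control. That is at or under the limit in both groups, so no fold is given. ppk13, on 2L at 21086790 to 21088751, had 1, 0 and 0 reads in HopCA, against 0, 1, 2 and 1 reads in control, a ratio of 0.334 with a counting interval of 0.00679 to 3.38.

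ppk19, the salt taste partner of ppk11, had most of its few reads in HopCA. It lies on 3R at 29672456 to 29674223, and 217 of its 1536 exon bases fall within exons of Bub3 on the opposite strand. It had 2, 1 and 1 reads in HopCA, against 1, 0, 0 and 0 reads in control, and 2 of these 5 reads were intronic. The ratio was 5.35 with a counting interval of 0.530 to 263.5, so its direction is not resolved. ppk12, on 2R at 22427479 to 22429584, had 0, 1 and 1 reads in HopCA, against 0, 0, 2 and 0 reads in control. ppk7 (2L, 6352324 to 6354331) and ppk14 (2L, 6354956 to 6356672) are neighbours 624 bases apart on opposite strands. ppk7 had 0 reads in HopCA and 1 read in 1 control library, and ppk14 had 1 read in 1 HopCA library and 1 read in 1 control library.

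By length-corrected level the members spanned from undetected to just under 1 RPKM. In HopCA the order of mean RPKM was ppk28 at 0.956 ± 0.310, ppk11 at 0.177 ± 0.0715, ppk10 at 0.0416 ± 0.0173 and ppk19 at 0.0343 ± 0.0348 (SD, n = 3). Below them stood ppk12, ppk13 and ppk14, between 0.0118 and 0.0199 RPKM, and Nach and ppk7 were at 0. In control the order was ppk28 at 0.822 ± 0.199, ppk11 at 0.0931 ± 0.0298, ppk10 at 0.0687 ± 0.0761 and ppk13 at 0.0357 ± 0.0322 (SD, n = 4). ppk12, Nach, ppk14 and ppk7 followed, between 0.00715 and 0.0173 RPKM, and ppk19 was at 0 because its only control read was intronic.

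ppk28 stood above ppk11 in every library of either group, by 5.41 times in the HopCA means and 8.83 times in the control means. ppk11 shares its exons and reads with ppk16, which had 0.181 RPKM in HopCA and 0.117 RPKM in control. Both these folds and the rank of ppk11 given below thus rest on only part of the reads of that locus. ppk11 stood above ppk10 in every HopCA library, but overlapped it in control. From ppk10 downwards all neighbours in either order overlapped between libraries. Set against other genes, ppk28 had a mean RPKM above 40.7% of genes with exons and ppk11 above 29.9%, and the other 7 members lay above 12.1% to 24.9%. The tracheal regulator trh had 79.9 times the mean RPKM of ppk28. In whole tracheae, fewer cells of a type and less RNA per cell cannot be told apart.

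**Figure D4:**
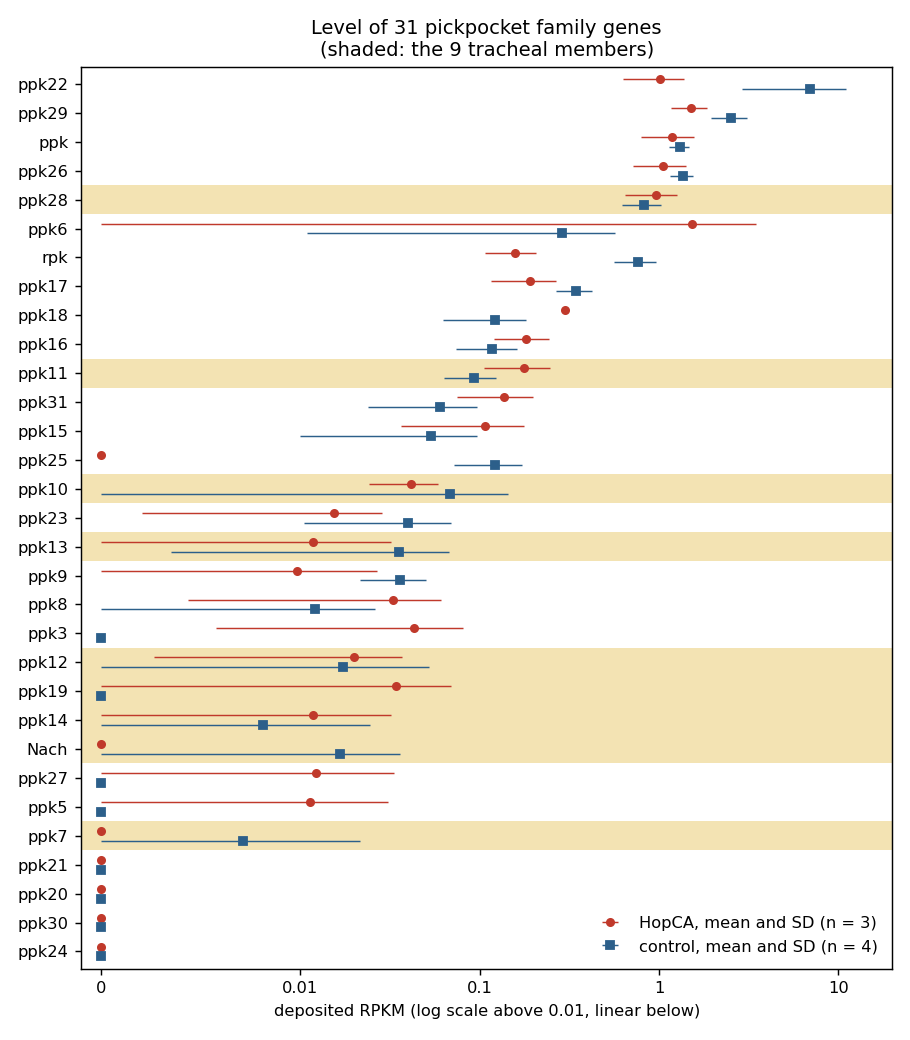
Mean deposited RPKM (horizontal axis, logarithmic above 0.01 and linear below) of the 31 pickpocket family genes in HopCA (circles, n = 3) and control (squares, n = 4), ordered by the mean over 7 libraries, with bars of 1 SD cut at 0 and the 9 tracheal members shaded. ppk28 ranks among the upper genes of the family near 1 RPKM, ppk11 sits in the middle, and the other 7 members fall below 0.1 RPKM.

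The 22 pickpocket genes outside this set include channels of touch, nociception and pheromone sensing. Of these, 9 passed the filter, and 13 did not, having 20 reads or fewer in all. 4 of the 13 (ppk20, ppk21, ppk24 and ppk30) had no read. edgeR called 1 of the 9 higher in HopCA, beside 16.4% of all genes tested, and 4 lower, beside 15.1%. The median log2 fold change of the 9 was -0.34, against -0.01 over all genes tested.

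Among the 9 tested, ppk22 had the lowest log2 fold change, with 39, 22 and 57 reads in HopCA, against 269, 567, 171 and 151 reads in control. Every HopCA library lay below every control library, at 2.04 ± 0.853 CPM in HopCA and 14.8 ± 8.78 CPM in control (log2 fold change -2.85 ± 0.55 SE, adjusted p = 0.00889). rpk, the ripped pocket channel, had 9, 9 and 5 reads in HopCA, against 39, 36, 25 and 54 reads in control, again without overlap (log2 fold change -2.29 ± 0.36 SE, adjusted p = 0.00334). It passed the filter on low counts only through its control libraries, where it is high. Without that filter its edgeR adjusted p was 0.00341. rpk overlaps part of another gene or several genes, and 79 of its 177 reads were unique. On unique reads its log2 fold change was -2.03 (edgeR adjusted p = 0.00781). ppk17 (log2 fold change -1.11 ± 0.30 SE, adjusted p = 0.0271) and ppk29, a channel gene of pheromone-sensing neurons (-0.80 ± 0.26 SE, adjusted p = 0.0483), fell as well. ppk17, which also passed the filter through its control libraries, had 46 of its 117 reads in introns. On exon reads alone its log2 fold change was -0.84 (adjusted p = 0.144). The calls of ppk17 and ppk29 were also lost without the filter on low counts (adjusted p 0.0535 and 0.0556). That of ppk29 was lost with limma-voom (0.0513) and on exon reads (0.0578). Leaving out any single HopCA library ended both of those calls, with adjusted p from 0.0565 to 0.0997 for ppk17 and from 0.0621 to 0.150 for ppk29. So did leaving out control replicate 2 or 3 for ppk17 (0.0517 and 0.0533) and control replicate 1, 2 or 4 for ppk29 (0.0702, 0.0631 and 0.0999).

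ppk18, which lies 158 bases from the ppk11 and ppk16 locus on the same strand, was the gene called higher. It had 12, 12 and 13 reads in HopCA, against 3, 5, 4 and 7 reads in control. All 3 HopCA libraries lay above all 4 control libraries, at 0.644 ± 0.0113 CPM in HopCA and 0.245 ± 0.0735 CPM in control (log2 fold change 1.36 ± 0.35 SE, adjusted p = 0.0215). It passed the filter on low counts through its HopCA libraries. Its call was lost without any single HopCA library (adjusted p from 0.0629 to 0.0788) and without control replicate 3 (0.0511). DESeq2 did not call it either (log2 fold change 1.38, adjusted p = 0.0669). Of the 56 ppk18 reads, 11 were intronic, and on exon reads alone it missed the filter and was not tested. It also missed a filter of 1 CPM in 3 libraries.

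ppk25, a channel gene of pheromone-sensing neurons, missed the filter on low counts and is named after its values were seen. It had 0 reads in all 3 HopCA libraries, against 4, 5, 2 and 2 reads in control, and 2 of these 13 reads were unique. Its summed control rate, 0.169 CPM (counting interval 0.0901 to 0.289), was 3.24 times the HopCA limit of 0.0522 CPM, taken as 3 reads over the group. Counting error in control leaves room for a smaller fold. Without the filter edgeR gave ppk25 an adjusted p of 0.0316. In that fit 4 of the 18 other pickpocket genes with reads were called, beside 20.2% of all genes.

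The subunits of nociceptive neurons did not pass the test. ppk, the family's founding member, had 37, 77 and 56 reads in HopCA, against 69, 65, 58 and 54 reads in control (log2 fold change -0.12 ± 0.28 SE, adjusted p = 0.774). ppk26, its partner in those neurons, had 26, 54 and 49 reads in HopCA, against 56, 47, 50 and 65 reads in control (-0.34 ± 0.29 SE, adjusted p = 0.392). HopCA replicate 1 was the lowest library for both genes, and the groups overlapped for both. Without it the log2 fold change of ppk was 0.11 and that of ppk26 was -0.0878. ppk6 had 114, 7 and 21 reads in HopCA, against 3, 21, 11 and 1 reads in control, so that 1 HopCA library held most of its reads (log2 fold change 2.39 ± 1.09 SE, adjusted p = 0.134). Without that library, HopCA replicate 1, its log2 fold change was 0.62 (adjusted p = 0.685). ppk16 gave 0.64 ± 0.42 SE (adjusted p = 0.278) on the reads it shares with ppk11.

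**Figure D5:**
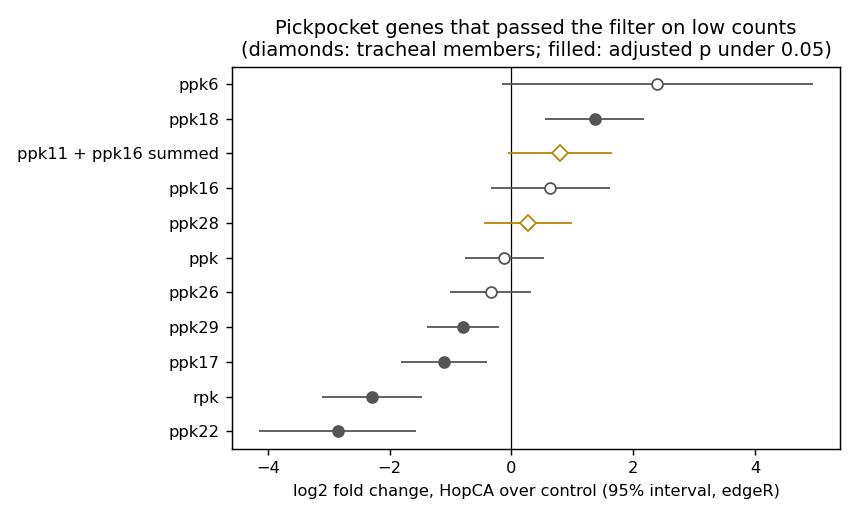
log2 fold change of HopCA over control (horizontal axis) with its 95% interval from edgeR for the 10 pickpocket genes that passed the filter on low counts and for the summed ppk11 and ppk16 reads; diamonds are ppk28 and that sum, and filled symbols have an adjusted p under 0.05. Both diamonds lie right of 0 with intervals that cross it, ppk18 lies to the right with its interval clear of 0, and ppk29, ppk17, rpk and ppk22 lie to the left with theirs clear of 0.

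Genes that move salt and water across epithelia were listed beside the channels. Of 21 tested genes for sodium, potassium and chloride transport, 5 were called higher and 4 lower in HopCA, beside 16.4% and 15.1% of all genes tested, with a median log2 fold change of -0.14. The chloride channel gene Best1 (-1.23 ± 0.09 SE, adjusted p = 0.000186) and the potassium chloride cotransporter kcc (-0.99 ± 0.16 SE, adjusted p = 0.00394) fell. The cation chloride cotransporter gene Ncc69 (0.68 ± 0.09 SE, adjusted p = 0.00148) and nrv3, a beta subunit of the sodium pump (0.74 ± 0.21 SE, adjusted p = 0.0298), rose. The call of nrv3 was lost without control replicate 1, 2 or 4 or without any single HopCA library, with adjusted p from 0.0524 to 0.0922. Of the 7 water channel genes 5 were tested, and 1 was called: Prip fell (-0.59 ± 0.17 SE, adjusted p = 0.0338), a call lost without control replicate 1 or any single HopCA library (adjusted p from 0.0664 to 0.109).

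Of 21 tested genes of lumen clearance and tube maturation, 5 (23.8%) were called higher and 0 lower, with a median log2 fold change of 0.14. That share was close to the 16.4% of all genes tested that were called higher, and 10 of the 21 had an unadjusted p under 0.05, beside 44.1% of all genes. Lower calls appeared under 6 of 18 alternatives, 2 to 4 of them, with 3 by DESeq2. serp and verm, chitin deacetylases secreted into the tracheal lumen, rose by 0.74 ± 0.08 SE (adjusted p = 0.000823) and 0.58 ± 0.07 SE (adjusted p = 0.00165) on the log2 scale. wus, a gene needed for liquid clearance, rose by 0.68 ± 0.17 SE (adjusted p = 0.0213). AP-2alpha, an adaptor subunit of clathrin-coated vesicles, rose by 0.30 ± 0.09 SE (adjusted p = 0.0418). The call of wus was lost without control replicate 4 or HopCA replicate 1 or 3 (adjusted p 0.0528, 0.0817 and 0.0538), and that of AP-2alpha without control replicate 3 or 4 or any single HopCA library (adjusted p from 0.0640 to 0.127). Of 8 fly counterparts of genes that regulate vertebrate ENaC, edgeR called 0 and DESeq2 called 1, and 3 had an unadjusted p under 0.05. The most expressed of them, Fur2, a furin-type protease gene, and sgg, the fly glycogen synthase kinase 3 gene, gave log2 fold changes of 0.23 ± 0.12 SE (adjusted p = 0.174) and 0.04 ± 0.14 SE (adjusted p = 0.853).

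Some of the genes next to the members were well read. Picot, 276 bases from Nach on the same strand, had 240.6 ± 1.85 CPM in HopCA and 148.0 ± 15.2 CPM in control (log2 fold change 0.70 ± 0.09 SE, adjusted p = 0.00171), where Nach had 3 reads in all. Bub3, whose exons overlap those of ppk19, had 43.8 ± 3.85 CPM in HopCA and 54.1 ± 3.41 CPM in control (-0.30 ± 0.09 SE, adjusted p = 0.0329). Obp99a, 121 bases from ppk19 on the same strand, had 1.07 ± 0.338 CPM in HopCA and 2.75 ± 1.20 CPM in control (-1.36 ± 0.40 SE, adjusted p = 0.0338). The nearest gene to ppk10, loh at 53 bases on the opposite strand, had 3.31 ± 2.13 CPM in HopCA and 4.08 ± 1.30 CPM in control (-0.30 ± 0.43 SE, adjusted p = 0.624). LManI, 280 bases from ppk10, had 11.99 ± 3.60 CPM in HopCA and 10.4 ± 1.03 CPM in control (0.20 ± 0.20 SE, adjusted p = 0.467). CG13005, 313 bases from ppk28 on the same strand, had 4.73 ± 0.431 CPM in HopCA and 5.0003 ± 0.658 CPM in control (-0.08 ± 0.17 SE, adjusted p = 0.736). These neighbours are described by position only.

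The genes whose profiles over the 7 libraries lay closest to those of the 3 most abundant members were found by the root mean square difference of centred log2(CPM + 0.5) values. For ppk28 these were CG32533, FoxK and mtRNApol, at 0.160, 0.169 and 0.173, beside a median of 0.366 over all genes tested. For ppk11 they were CG14440, r-cup and CG32537, at 0.101, 0.105 and 0.118, beside a median of 0.356. For ppk10 they were Dronc, CG2211 and Sep2, at 0.0680, 0.0766 and 0.0786, beside a median of 0.295. Only 14 reads in all stand behind the ppk10 profile. The added 0.5 exceeds the CPM of ppk10 in every library (at most 0.288) and flattens its profile. Genes that vary little then lie closest to it, so these nearest genes say little about ppk10. The profile of ppk11, at a mean of 0.587 CPM in HopCA and 0.299 CPM in control, is flattened to a lesser degree. That of ppk28 rests on 25 to 53 reads per library, nearly all of them not uniquely assigned. For all 3 members the nearest genes lie below the median by selection, so that gap by itself shows no likeness.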

How the data were processed

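A gene table was deposited for each library and, per the file headers, holds raw read counts per gene (total, unique, exon, exon-exon and intron reads) and RPKM values. The deposited counts are whole numbers without normalization, and the RPKM was scaled by the authors to exon length and library total. Per the labels' protocols, the library kit was stranded. The submitters' processing notes name cutadapt 1.8.1 and dm6. Aligner, counter and strand setting: not given in the sources used here.

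Groups came from the sample titles and 1 unnamed row without reads was left out. Total gene reads were tested with edgeR 4.0.16 in R 4.3.3 (filterByExpr with minimum count 10 and minimum total 15, TMM, robust quasi-likelihood, group as only term, Benjamini-Hochberg over 9457 genes, called at an adjusted p under 0.05). The common biological coefficient of variation over the genes tested was 0.199. The procedure was tested on simulated data. Single values of members were compared by exact permutation. Rate ratios and shares have exact 95% intervals, which cover counting error only, and 3 reads were taken as the limit for a count of 0. Each of the 9 pairs of libraries within a group differed beyond sampling noise, with chi-square values of at least 20.6 times their degrees of freedom. Gene positions, exons and coding regions were read from Ensembl release 115, whose coordinates equalled those of the tables for 9 of 9 members.

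The members and lists were chosen with earlier results of these data known. Named genes were hop, the 9 members, every other pickpocket gene called and the 3 of highest mean RPKM otherwise, up to 4 called genes of largest change per list (or the 2 most expressed), and the 3 nearest profiles of the 3 most abundant members. The neighbours, ppk16, ppk25 and ppk3 were named after their values were seen. Fxyd and gho, on the lists, were not matched. Alternatives were DESeq2 1.42.0, limma-voom 3.58.1, scaling by RLE or by library size alone, dropping the filter, a filter of 1 CPM in 3 libraries, unique reads, exon reads, a replicate block, an adjusted p under 0.01 and each library left out. Leaving out control replicate 2 with HopCA replicate 1, and summing ppk11 with ppk16, were added after seeing the data. Figures were drawn with matplotlib 3.10.9.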

Additional observations from a re-analysis of the deposited data

Results flagged for a closer look

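In 8 of 43 genes checked, 1 control library stood apart from the other 3, its gap to the nearest exceeding Dixon's 95% critical value for 4 samples. Chance gives this in about 1 in 20 groups of continuous values. That rate does not apply where a single control library holds the only reads, as in 5 of the 8, since the gap then fills the range by construction. The groups of 3 HopCA libraries were too small to check. For ppk11 it was control replicate 1, at 0.161 CPM (3 reads), where the other 3 control libraries lay between 0.336 and 0.357 CPM. For 4 members the library that stood apart was the only control library with any read. These were ppk7 in control replicate 4 (0.0486 CPM, 1 read), ppk12 in control replicate 3 (0.119 CPM, 2 reads), ppk14 in control replicate 4 (0.0486 CPM, 1 read) and ppk19 in control replicate 1 (0.05367 CPM, 1 read). The same held for ppk3 in control replicate 3 (0.0595 CPM, 1 read). Among abundant genes, AP-2alpha had 125.4 CPM and sgg 110.6 CPM in control replicate 1, where the other control libraries lay between 152.9 and 155.3 CPM and between 160.9 and 165.2 CPM.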

How the results depend on the processing

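Depth limits 7 members, which had 14 reads or fewer, and shared assignment limits ppk28 and ppk11, so that unique reads left no member to test. No member was called under any alternative run, with 9 tested without the filter. The log2 fold change of ppk28 ran from 0.06 to 0.52 over 16 settings, with adjusted p from 0.233 to 0.915. Leaving out 1 library gave 1676 to 3407 called genes, 2 to 4 other pickpocket genes, 5 to 9 transport genes, 0 to 1 water channels, 2 to 9 clearance genes and 0 to 1 ENaC regulators, against 2978, 5, 9, 1, 5 and 0. At an adjusted p under 0.01 these were 1312, 2, 5, 0 and 2, with no ENaC regulator. Without control replicate 2 and HopCA replicate 1 together they were 1573 genes, 2 other pickpocket genes, 4 transport genes, 2 clearance genes and 1 ENaC regulator. Exon reads gave 2 other pickpocket genes, and no filter gave 3 clearance genes. DESeq2 gave 2 water channels, 8 clearance genes and 1 ENaC regulator, and unique reads gave 2 water channels. The log2 fold change of ppk ran from -0.43 to 0.11 with 1 library left out, turning positive without HopCA replicate 1, and was 0.0905 without it and control replicate 2. That of sgg ran from -0.0900 to 0.0872, turning negative without control replicate 1. The causes were not tested.

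The replicate numbers did not pair the libraries: same-numbered deviations correlated at -0.223, -0.432 and -0.0694. With the replicate block, 938 genes, 1 other pickpocket gene, 3 transport genes and 2 clearance genes were called, and no member.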
